A study of Mus musculus with 2 samples.

Results

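A set of 9 genes of growth factor and chemokine signalling was followed in sorted mouse microglia: Csf1r, Csf1, Csf2ra, Csf2rb, Csf2rb2, Csf3r, Cx3cr1, Igf1 and Pdgfb. They were picked by symbol, as receptors for colony-stimulating factors and fractalkine and as growth factors, and all 9 were among the 31053 features measured. Microglia are the resident macrophages of the brain. Droplet single-cell RNA sequencing was run on 2 libraries, titled WT and IRF8KO, each from a pool of 3 female C57BL/6 mice of age 3 months with no treatment, isolated without enzymes and sorted by flow cytometry, to compare wild-type cells with cells lacking the transcription factor IRF8. The knockout allele is not named in the sources used here, and although titled IRF8KO, the second sample carries WT as its genotype entry, so it is called the library labelled IRF8KO. Each group was 1 library, so no value has a replicate, no test of genotype could be made, and intervals are 95% intervals that cover counting error only.

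Cells that had 1000 UMIs or more (molecular tags, each counting 1 captured transcript), 500 genes or more and no more than 10% of UMIs from mitochondrial genes fell into 3 populations. There were 3304 WT cells with 18543061 UMIs, at a median of 3204.5 per cell. The library labelled IRF8KO gave 5007 cells in which Camp, Ngp, S100a8, S100a9, Lcn2 and Ltf, 6 genes of neutrophil granules and secreted proteins, together held under 2% of the UMIs, with 18980263 UMIs and a median of 2933. The remaining 98 cells of that library, called granule-rich cells, held 842948 UMIs at a median of 7057.5. The highest granule share under the limit was 0.232%, and the lowest shares over it were 2.36% and 6.82%, in 2 cells of 47753 and 31927 UMIs, followed by 19.5%. Levels are UMIs summed over a population and scaled by the population's total to CPM.

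The sort label was checked against marker lists. All 11 microglia markers were detected in WT cells, at a summed 29767 CPM, and in the low-granule IRF8KO cells, at 12813 CPM, where Sall1 was the 1 marker under 10 CPM. The 11 border macrophage markers, genes of macrophages at the brain's edges, summed to 265 CPM in WT cells, where Cd163, Lyve1, Ms4a7, F13a1, Clec12a and Cd209f were at 0. In low-granule IRF8KO cells they summed to 3376 CPM, and 6 reached 10 CPM, led by Pf4 at 1462 CPM. There Cd163 was at 9.11, Cbr2 at 6.11, Folr2 at 0.211, Lyve1 at 0.105 and Cd209f at 0 CPM. Folr2 was below its 1.73 CPM in WT cells. Neutrophil markers summed to 2.48 and 54.6 CPM, monocyte markers to 9.38 and 26.0 CPM, B cell markers to 313 and 26.3 CPM, mostly Ighm, and astrocyte markers to 215 and 30.8 CPM, mostly Slc1a3. T or NK cell, red blood cell, neuron and mural cell markers were each at or below 2.37 CPM in both, endothelial markers at 60.7 and 27.3 CPM and oligodendrocyte lineage markers at 39.7 and 67.4 CPM. Apoe took 0.0478% of WT UMIs and 8.83% of low-granule IRF8KO UMIs, and ribosomal protein genes took 6.93% and 14.1%. These differences move with every comparison between the libraries below. Totals that left out mitochondrial and ribosomal protein genes, or the most abundant genes, were used as alternatives. Beyond such scaling, the part of these differences in the results was not tested. Irf8 itself was at 794 CPM in WT cells and 669 CPM in low-granule IRF8KO cells, a log2 ratio of -0.25 (-0.28 to -0.21), and transcript tags outside a deleted part do not check a deletion.

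The CSF1 receptor, encoded by Csf1r, is a tyrosine kinase on which microglia depend for survival, and CSF1 is one of its ligands. Receptors for GM-CSF pair the alpha chain Csf2ra with the common beta chain Csf2rb, mice carry a close copy of the beta chain in Csf2rb2 that serves the interleukin-3 receptor, and Csf3r encodes the receptor for G-CSF, a factor of granulocyte production. Cx3cr1 encodes the receptor through which microglia sense fractalkine on neurons. Igf1 and Pdgfb encode secreted growth factors, the first linked to macrophages around development and injury, the second acting mainly on mural cells of blood vessels.

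In the low-granule IRF8KO cells, Igf1 and Csf1 were at least 2-fold higher than in WT cells, and Csf2rb2, Pdgfb and Cx3cr1 at least 2-fold lower, while Csf1r, Csf2rb, Csf2ra and Csf3r differed by less. Across the 8859 genes with at least 10 CPM in either population, 5.61% were at least 2-fold higher and 9.28% at least 2-fold lower, and the median log2 ratio was -0.28. With trimmed-mean (TMM) scaling, that median was -0.02 and the shares were 7.52% higher and 5.97% lower. Members thus stood on both sides of the median of all genes.

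For the members past 2-fold that had a listed RefSeq start (GRCm38.p6), the 250 bases before it are given 5′ to 3′ on the gene's strand. These are Igf1, Csf1, Csf2rb2 and Cx3cr1. For Igf1 and Cx3cr1 that start lies inside the annotated span of the gene, so the window does not precede the whole gene. Capitals mark GGAA, the core bound by ETS factors such as PU.1, or its complement TTCC.
Igf1 (chr10:87860861-87861110, plus strand): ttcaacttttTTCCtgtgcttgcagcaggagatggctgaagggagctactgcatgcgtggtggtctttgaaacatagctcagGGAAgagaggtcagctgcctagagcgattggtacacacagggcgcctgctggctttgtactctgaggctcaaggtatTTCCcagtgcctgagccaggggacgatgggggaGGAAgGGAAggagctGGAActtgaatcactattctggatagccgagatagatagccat
Csf1 (chr3:107760470-107760719, minus strand): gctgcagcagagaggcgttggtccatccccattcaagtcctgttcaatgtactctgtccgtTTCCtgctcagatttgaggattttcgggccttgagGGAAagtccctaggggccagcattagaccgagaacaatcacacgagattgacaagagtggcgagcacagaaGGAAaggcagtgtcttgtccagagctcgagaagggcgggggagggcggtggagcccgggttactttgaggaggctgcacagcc
Csf2rb2 (chr15:78305722-78305971, minus strand): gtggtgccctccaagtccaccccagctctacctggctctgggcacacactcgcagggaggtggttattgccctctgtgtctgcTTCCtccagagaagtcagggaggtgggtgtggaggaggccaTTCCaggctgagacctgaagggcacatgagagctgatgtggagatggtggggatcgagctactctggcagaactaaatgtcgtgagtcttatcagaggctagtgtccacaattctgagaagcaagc
Cx3cr1 (chr9:120068297-120068546, minus strand): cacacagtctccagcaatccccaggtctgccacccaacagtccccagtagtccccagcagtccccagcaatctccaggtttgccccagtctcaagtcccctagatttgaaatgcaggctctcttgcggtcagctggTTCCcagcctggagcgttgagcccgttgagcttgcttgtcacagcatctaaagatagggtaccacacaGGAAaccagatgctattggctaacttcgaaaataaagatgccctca
Starts were listed for 6 of the 9 genes, and not for Csf1r, Csf2rb and Pdgfb. GGAA occurred 6 times before Igf1, 3 times before Csf1 and 2 times before Csf2rb2 and before Cx3cr1, counting both strands, beside a median of 3 over 32851 promoters of that length, 93.4% of which held at least 1. Neither GAAA followed after 2 bases by GAAA, the core of the interferon response element, nor GGAA followed after 2 bases by GAAA, a composite of the ETS and IRF cores, was found on either strand of the 6, and 2.98% and 2.30% of all promoters held them. A match or its absence describes letters in this window only.

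**Figure D1:**
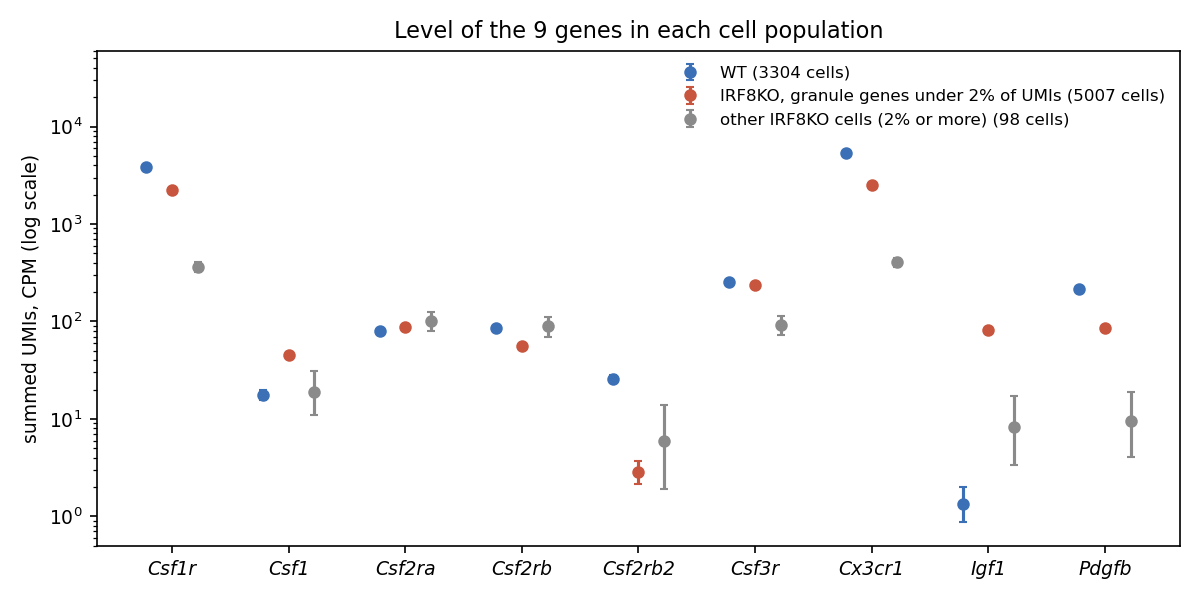
Level of each of the 9 genes (CPM of summed UMIs, log axis) in WT cells, low-granule IRF8KO cells and the other IRF8KO cells; bars are exact 95% Poisson intervals. Igf1 stands at 1.35, 81.0 and 8.30 CPM, and Cx3cr1 at 5380, 2501 and 405 CPM.

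Csf1r was at 3856 CPM in WT cells and 2219 CPM in low-granule IRF8KO cells, a log2 ratio of -0.80 (-0.81 to -0.78). The gene lies on chromosome 18 from 61100598 to 61132149 (GRCm38, plus strand), overlapped on the other strand by Hmgxb3. After each cell was thinned to 2000 UMIs, with 285 shallower WT cells and 498 low-granule IRF8KO cells left out, a UMI was found in 99.8% of WT cells and 97.9% of low-granule IRF8KO cells (unthinned, 99.8% and 99.2%), and the median cell held 7 and 4. Nearly all cells of both populations thus held a UMI, and 22.2% of the low-granule IRF8KO cells held fewer than the 3 UMIs that mark the WT 5th percentile, against 2.75% of WT cells. Across quartiles of cell depth, cut within each population here and below, the log2 ratio ran from -0.81 to -0.77. The quartiles were thus not matched for depth: the deepest had medians of 8488 UMIs in WT and 5414 in low-granule IRF8KO cells.

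Csf1, the ligand (chromosome 3, 107741048 to 107760469, minus strand), went the other way, with 326 UMIs in WT cells (17.6 CPM) and 857 in low-granule IRF8KO cells (45.2 CPM), a log2 ratio of 1.36 (1.18 to 1.55). At 2000 UMIs it was seen in 2.38% of WT cells and 7.65% of low-granule IRF8KO cells (unthinned, 6.87% and 13.6%). From the shallowest to the deepest quartile of cells the log2 ratio was 1.78, 0.85, 1.11 and 1.56, so it was within 2-fold in the second. Il34, the second ligand of the receptor, had no UMI in any population. Within WT cells Csf1 was uneven: a cluster of 115 cells led by Ccl4, Cxcl10 and Ccl3 held 97 of the 326 UMIs, at 86.2 CPM against 13.1 CPM in the other WT cells, a log2 ratio of 2.71 (2.35 to 3.06). That level was above those of the 3 large IRF8KO clusters, 36.1 to 52.9 CPM. Without this WT cluster, a choice made after seeing the data, the log2 ratio between the libraries was 1.78.

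Of 18 measured genes of CSF1 receptor signalling, 1 was at least 2-fold higher in low-granule IRF8KO cells and 1 at least 2-fold lower, with a median log2 ratio of -0.31, near the -0.28 of all genes. The higher gene was Ets2, a transcription factor downstream of the receptor, at 15.3 CPM in WT and 40.3 CPM in low-granule IRF8KO cells (log2 ratio 1.40), and the lower one was Pik3cd, a catalytic subunit of PI3 kinase, at 100 and 48.9 CPM (-1.04). With TMM scaling Pik3cd was at -0.78 and no longer past 2-fold. Tyrobp, the adaptor DAP12, was at 2381 and 3859 CPM (0.70). These counts are near the shares of all genes, 5.61% higher and 9.28% lower, and say nothing particular of the list.

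The beta chains differed by unequal amounts. Csf2rb2 (chromosome 15, 78282507 to 78305721, minus strand) had 481 UMIs in WT cells, 25.9 CPM, and 54 in the low-granule IRF8KO cells, 2.85 CPM, 9.12-fold lower (log2 ratio -3.19, -3.62 to -2.78). At 2000 UMIs, 4.74% of WT cells and 0.532% of low-granule IRF8KO cells held a UMI (unthinned, 11.6% and 1.06%). Its neighbour Csf2rb (78325752 to 78353847, plus strand), whose annotated span starts 20031 bases from that of Csf2rb2, was at 85.9 and 55.8 CPM, a log2 ratio of -0.62 (-0.74 to -0.51). The longest transcripts of the pair are 92.0% identical over 4606 aligned bases, so reads could be split between them. Of the 90-base stretches, 8.19% of Csf2rb and 8.47% of Csf2rb2 occur in the other gene, and 0% within the last 500 bases, where droplet reads mostly fall.

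The alpha chain gene Csf2ra (chromosome 19, 61223957 to 61228429, minus strand) was at 79.3 CPM in WT and 87.6 CPM in low-granule IRF8KO cells, a log2 ratio of 0.14 (0.04 to 0.24). Csf3r (chromosome 4, 126024550 to 126044440, plus strand) was at 251 and 238 CPM, a log2 ratio of -0.08 (-0.14 to -0.02), and 35.9% and 36.1% of thinned cells held a UMI (unthinned, 55.1% and 51.2%). Its sign depended on the quartile of cells: from the shallowest to the deepest the log2 ratio was 0.38, 0.19, -0.02 and -0.20. Those quartiles were not matched for depth between the populations, and TMM scaling gave 0.17. No direction is therefore given for Csf3r. The ligands Csf2, Csf3, Il3 and Il5 had no UMI in any population.

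None of the 9 measured genes of beta common and G-CSF receptor signalling passed 2-fold in either direction, with a median log2 ratio of -0.62. Of all genes 5.61% were higher and 9.28% lower, so the count is not read as particular to the list. The kinase gene Jak1 was at 250 CPM in WT and 163 CPM in low-granule IRF8KO cells (log2 ratio -0.62), and the transcription factors Stat3 and Stat5a were at -0.68 and -0.70. Pim1, a kinase gene induced by STAT5, was at 11.3 and 20.9 CPM (0.89), and past 2-fold with TMM scaling (1.14). The survival gene Mcl1 was at 309 and 293 CPM (-0.08).

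Cx3cr1 was at 5380 CPM in WT cells and 2501 CPM in low-granule IRF8KO cells, a log2 ratio of -1.10 (-1.12 to -1.09). At 2000 UMIs it was detected in 99.8% and 96.8% of cells (unthinned, 99.9% and 98.6%), with medians of 9 and 4 UMIs. The share of low-granule IRF8KO cells under the WT 5th percentile of 4 UMIs was 36.8%, against 4.14% of WT cells. The 2-fold call was lost with TMM scaling (-0.85), when mitochondrial and ribosomal protein genes were left out of the totals (-0.96), with equal weight for each cell (-0.97) and after thinning (-0.999), all in the same direction, and the log2 ratio ran from -0.78 in the shallowest to -1.19 in the deepest quartile of cells. The annotated gene, on the minus strand of chromosome 9 from 119901616 to 120069879, spans others, among them Wdr48 and Csrnp1, and whether counting used strand is not given in the sources used here.

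**Figure D2:**
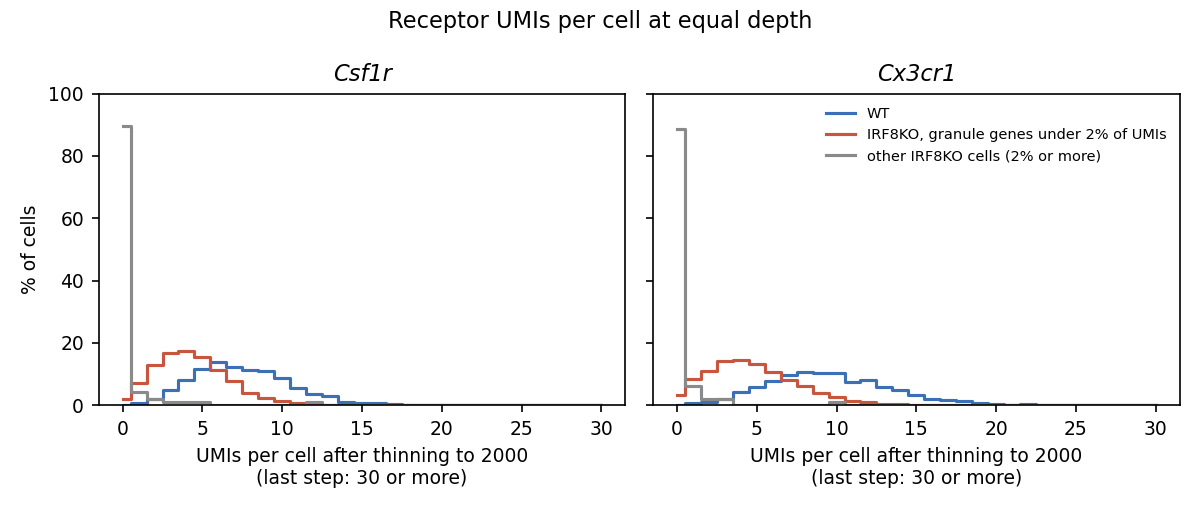
Share of cells (%) at each number of Csf1r and Cx3cr1 UMIs per cell after thinning to 2000 UMIs, for WT, low-granule IRF8KO and other IRF8KO cells. The low-granule IRF8KO curves are shifted to lower counts (medians of 4 for both genes, beside 7 and 9 in WT), and most of the other IRF8KO cells are at 0.

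Of 12 measured genes of fractalkine signalling and related chemokine receptors, 2 were at least 2-fold higher and 2 at least 2-fold lower, with a median log2 ratio of -0.46. Among all genes 5.61% were higher and 9.28% lower, with a median of -0.28. The list was not tested against these shares, and its counts are not read as particular to it. Rgs1, which damps G protein signals, was at 22.8 CPM in WT and 108 CPM in low-granule IRF8KO cells (2.24), and Ccr2, the monocyte chemokine receptor, at 5.55 and 15.6 CPM (1.49). Among the lower genes, Rgs10, another regulator of G protein signals, was at 1571 and 740 CPM (-1.09, and within 2-fold at -0.83 with TMM scaling). Gnai2, the G protein subunit with the most UMIs on the list, was at 997 and 705 CPM (-0.50).

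Igf1 (chromosome 10, 87858265 to 87937042, plus strand, with the antisense Igf1os) showed the widest difference of the 9: 25 UMIs in WT cells, 1.35 CPM, and 1537 in low-granule IRF8KO cells, 81.0 CPM. The fold was 60.1 (log2 ratio 5.91, 5.34 to 6.54). A UMI was found in 0.199% of thinned WT cells and 13.3% of thinned low-granule IRF8KO cells (unthinned, 0.636% and 21.0%). The granule-rich cells of the library labelled IRF8KO were taken as cells that should lack the gene. However, the 2 of them just over the granule limit held 3 of their 7 Igf1 UMIs. Of 97 thinned granule-rich cells, 1 held a UMI, 1.03% (0.0261% to 5.61%). Among those at 10% granule share or more it was 1 of 95, 1.05% (0.0266% to 5.73%). The background of free RNA in the WT library was not measured. Among the low-granule IRF8KO cells, 601 of 4509 thinned cells held an Igf1 UMI, and the remaining 3908 did not. In the cells with and without it the mean was 5.02 and 4.74 UMIs for Cx3cr1, 4.31 and 4.35 for Csf1r, 0.471 and 0.462 for Csf3r, 0.145 and 0.180 for Csf2ra, and 0.00832 and 0.00486 for Csf2rb2, the sparsest member. Mrc1 had means of 1.19 and 0.931 UMIs, and Apoe 175 and 176, both genes chosen outside the naming rule. Mrc1 is 1 of the 11 border macrophage markers, and the others were not compared between these cells, so it does not stand for the list.

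Of the IGF system, 4 of 17 listed genes were measured at 10 CPM or more in either population, with none at least 2-fold higher and 2 at least 2-fold lower. The shares of all genes were 5.61% higher and 9.28% lower, and 4 genes are too few to set against them. Igf1r, the receptor of IGF1, was at 54.6 CPM in WT and 19.3 CPM in low-granule IRF8KO cells (log2 ratio -1.50, -1.67 to -1.32), and Igfbp4, which binds IGFs, at 24.97 and 9.01 CPM (-1.47). The insulin receptor gene Insr was at 60.2 and 55.6 CPM (-0.11), and the adaptor gene Irs2 at 27.1 and 21.4 CPM (-0.34). Igf1 was thus above and Igf1r below its WT level, as were Csf1 and Csf1r in turn. A relation between ligand and receptor was not tested.

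Pdgfb (chromosome 15, 79995874 to 80014977, minus strand, with the antisense Gm41361) was at 214 CPM in WT cells and 85.7 CPM in low-granule IRF8KO cells, 2.50-fold lower (log2 ratio -1.32, -1.40 to -1.24). A UMI was found in 33.0% and 14.8% of thinned cells (unthinned, 51.9% and 23.9%), and the log2 ratio was between -1.34 and -1.22 in every depth quartile. Pdgfa, which encodes the other classical PDGF chain, was at 50.9 and 65.6 CPM (0.37). Of 5 measured genes of the PDGF and VEGF family, 1 was at least 2-fold higher and 1 at least 2-fold lower: Flt1, a VEGF receptor, at 0.485 and 19.2 CPM (5.31, 4.37 to 6.45), and Nrp2, a co-receptor, at 68.6 and 17.2 CPM (-1.998). For all genes the shares were 5.61% and 9.28%, and 5 genes are too few to compare with them. Flt1 is also 1 of the 4 endothelial markers, of which 3 were detected in both populations. Their sum was 60.7 CPM in WT, mostly Pecam1 at 52.0 CPM, and 27.3 CPM in low-granule IRF8KO cells, mostly Flt1, with Kdr at 8.14 and 4.43 CPM and Cldn5 at 0, and the part of endothelial RNA was not tested. Vegfb was at 61.0 and 68.7 CPM (0.17) and Nrp1 at 179 and 219 CPM (0.29).

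**Figure D3:**
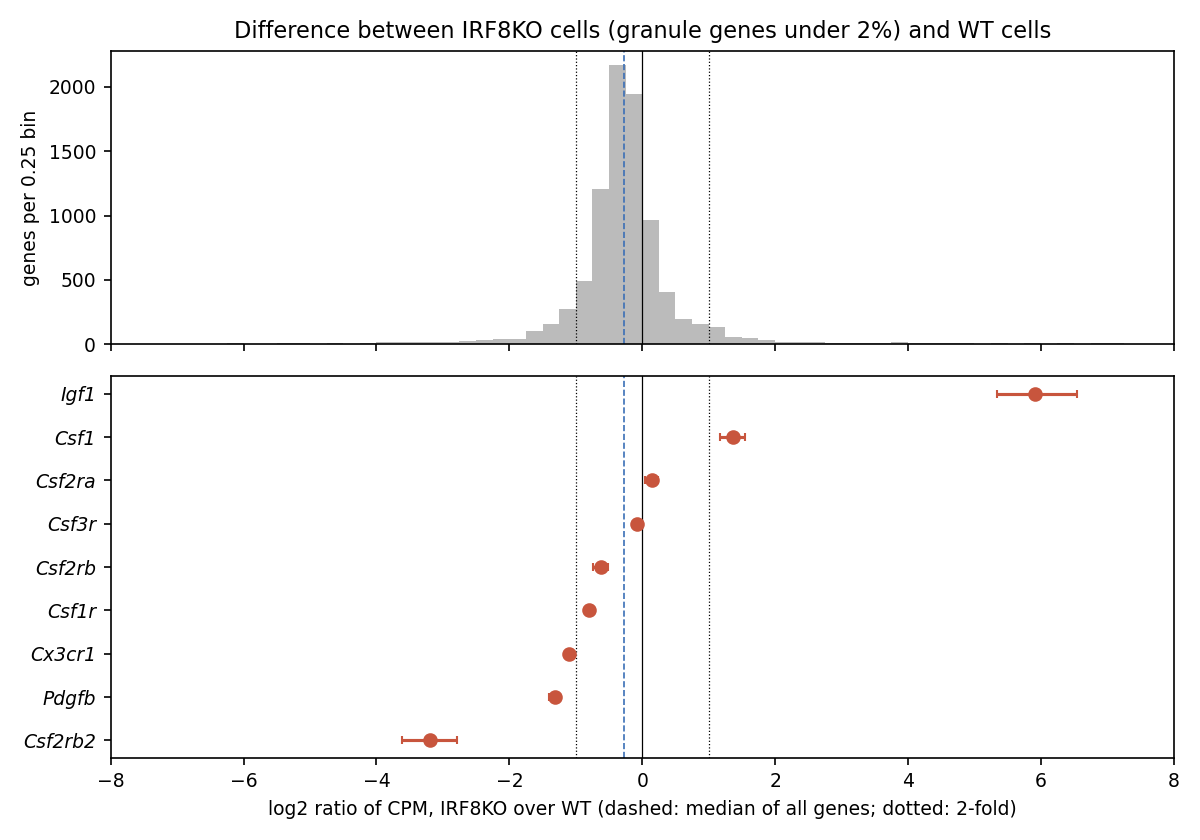
Log2 ratios of low-granule IRF8KO over WT cells for the 8859 genes with at least 10 CPM in either population (top, genes per bin) and for the 9 genes (bottom, with exact 95% intervals). Igf1, at 5.91, lies in the far right tail, and Csf2rb2, at -3.19, in the left.

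Among 8 measured genes of the remaining growth factors, 2 were at least 2-fold higher and 2 at least 2-fold lower, with a median log2 ratio of 0.01. Of all genes 5.61% were higher and 9.28% lower, with a median of -0.28, and 8 genes are too few to compare with these shares. Fgf2 was at 3.07 CPM in WT and 22.5 CPM in low-granule IRF8KO cells (2.87). Pros1, a ligand of the TAM receptors, was at 298 and 54.6 CPM (-2.45), and Kitl, the KIT ligand, at 39.8 and 12.4 CPM (-1.68). The most abundant were Grn (1233 and 914 CPM, -0.43) and Tgfb1 (444 and 329 CPM, -0.43). Beside 5.61% and 9.28% of all genes, 2 of 18 measured receptors for other cytokines were at least 2-fold higher and 3 lower. Their median was -0.32, and the counts are not read as particular to these receptors. With TMM scaling 1 was lower, since Il6st (-0.91, against -1.17 on CPM) and Il10ra (-0.77, against -1.02) came within 2-fold. Il2rg, the common gamma chain, was at 2.75 and 28.1 CPM (3.35), Il1r1 at 2.21 and 12.9 CPM (2.54), and Il7r at 76.7 and 0.105 CPM, the latter from 2 UMIs (-9.51, -12.56 to -7.65). The interferon gamma receptor gene Ifngr1 was at 1150 and 933 CPM (-0.30), and Tgfbr1 at 1465 and 1035 CPM (-0.50).

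The members varied between clusters built within each library without the members and listed genes. In the library labelled IRF8KO, cluster 1 (2108 cells) was led by Crybb1 and Cox6a2, cluster 2 (752 cells) by Cxcl10, Rsad2 and Ifit2, cluster 3 (2110 cells) by Fxyd5, Cd72 and Lgals1, and cluster 4 (39 cells) by Sall1. A further 96 cells were led by Ngp, Camp and S100a8, with 6 neutrophil markers among the 10 leading genes. Those 6 are the granule genes that chose the cells, so they give the name neutrophil-like no independent support. No other cluster met the rule for a name. Cluster 2 had a median of 5409.5 UMIs per cell, above the 2518.5 of cluster 1 and 3147.5 of cluster 3, and held the 2 cells just over the granule limit.

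Igf1 was at 108, 82.4 and 59.7 CPM in clusters 1, 2 and 3, so its level in cluster 1 was 1.82-fold that in cluster 3 (log2 ratio 0.86, 0.68 to 1.04). In the same clusters the border macrophage markers summed to 2720, 3688 and 3681 CPM, and the microglia markers to 15834, 12296 and 10568 CPM. Cx3cr1 and Csf3r were also higher in cluster 1 than in cluster 3, by 0.45 and 0.40 on the log2 scale, and Csf1 lower, at 36.1 and 47.9 CPM. Csf2rb was highest in cluster 2, at 78.6 CPM against 43.6 and 49.4 CPM, a log2 ratio of 0.74 (0.57 to 0.92) over clusters 1 and 3 together. Pdgfb differed little, at 79.2, 91.9 and 85.4 CPM. Csf2rb2 was at 1.23, 2.95 and 3.89 CPM, from 7, 17 and 29 UMIs, and cluster 1 was lower than cluster 3 by a log2 ratio of -1.67 (-3.10 to -0.44), the widest between these clusters among the 9. In WT clusters 1, 2 and 4 Igf1 was at 1.64, 0.944 and 0.888 CPM, and WT cluster 3 had 0 UMIs, which allows up to 37.3 CPM (upper limit of the exact Poisson interval).

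The 39 cells led by Sall1, a transcription factor that marks microglia, differed from the rest of the library in 3 members. Their Igf1 level was 7.42 CPM, from 1 UMI, against 81.5 CPM in the other low-granule IRF8KO cells (log2 ratio -3.46, -8.76 to -0.98). Cx3cr1 was at 4281 CPM against 2488 CPM (0.78, 0.66 to 0.90) and Csf1r at 3197 CPM against 2212 CPM (0.53, 0.39 to 0.67). Pdgfb, at 89.0 CPM and 85.6 CPM, was not separated (-0.90 to 0.86). These cells also had 29645 CPM of summed microglia markers and 838 CPM of border macrophage markers, beside 10568 to 15834 CPM and 2720 to 3688 CPM in clusters 1 to 3. Genes of a cluster describe it and give no test.

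**Figure D4:**
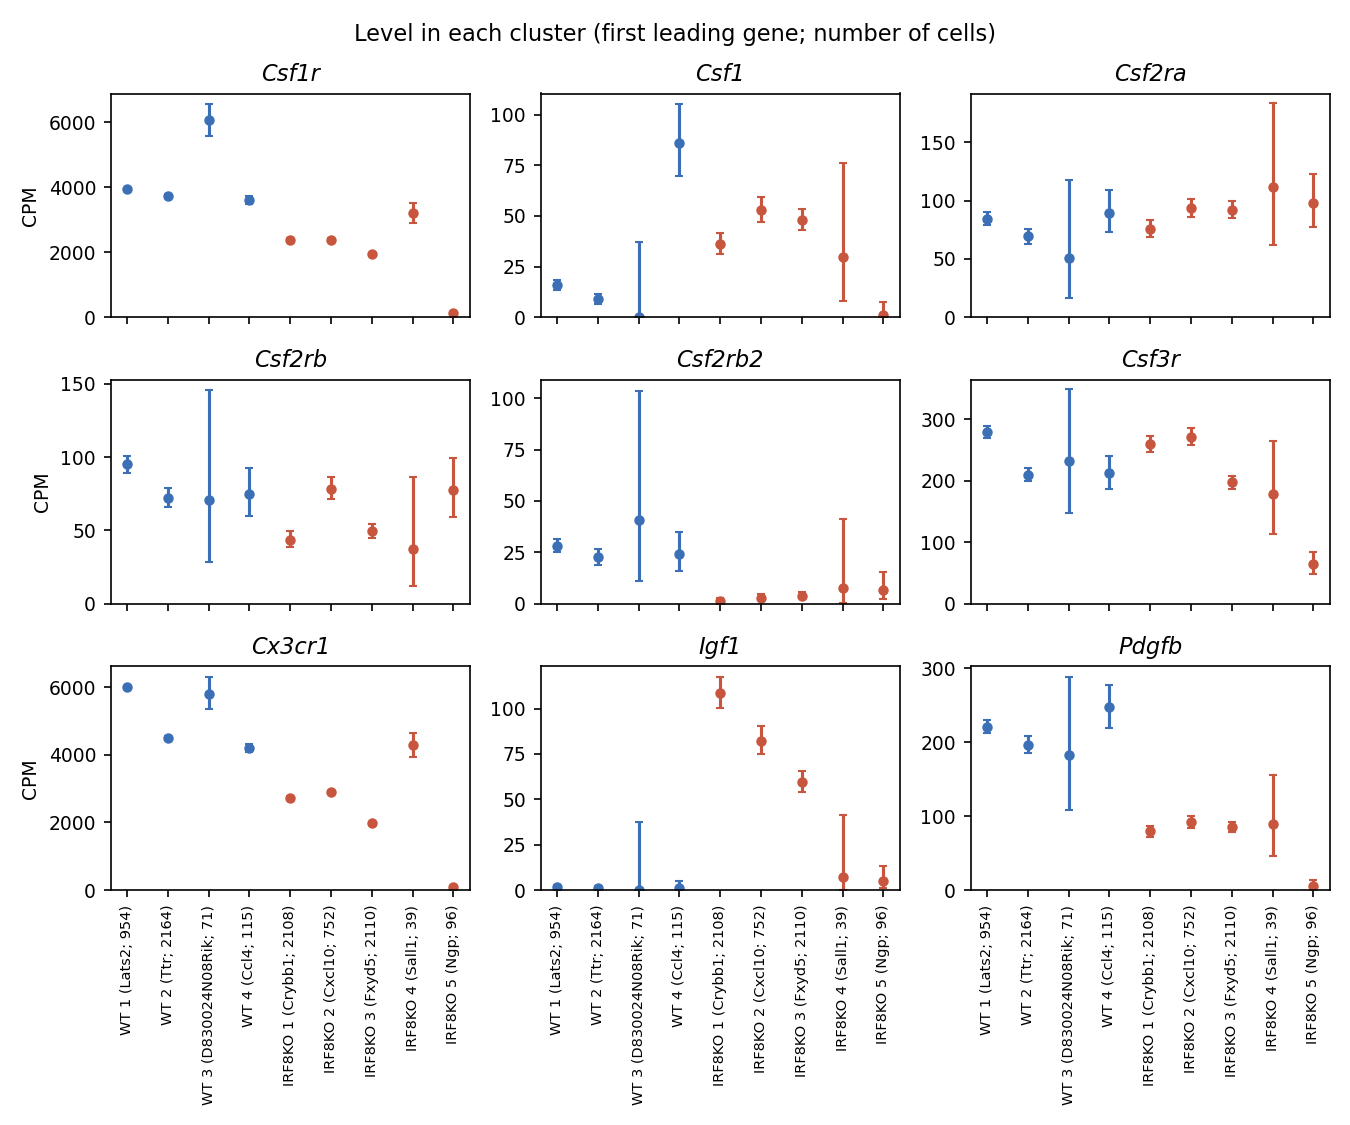
Level (CPM, linear axes from 0) of the 9 genes in each cluster of the WT library (blue) and the library labelled IRF8KO (red), with exact 95% Poisson intervals; labels give the first leading gene and the number of cells. Igf1 is at 59.7 to 108 CPM in the 3 large IRF8KO clusters and at 7.42 CPM in the cluster led by Sall1, and Csf1 peaks at 86.2 CPM in the WT cluster led by Ccl4.

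By Pearson correlation of log2(CPM + 1) over the 8 clusters of at least 50 cells, the genes most like Igf1 were Runx2, B3gnt8 and Reps2 (r = 0.99 for each), and those most like Csf2rb2 were Lpcat1, Ctsh and Naaa (r = 0.98 to 0.99). Mt1, Nrbf2 and Oat were closest to Csf1 (0.97 to 0.98). For Csf1r, Cx3cr1, Pdgfb and Csf3r, between 1004 and 1462 of 5095 genes reached r above 0.9, so likeness there is not specific, whereas 67 did for Igf1, 54 for Csf2rb2, 48 for Csf2ra and 0 for Csf2rb, whose closest gene was Mark2 (0.89). The clusters come from only 2 libraries and share depth and composition within each, so these values are descriptions.

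The 98 granule-rich IRF8KO cells were then set against the low-granule cells of the same library. Their granule genes, 6 of the 12 neutrophil markers, were high by selection. Of the other neutrophil markers, Mmp9 was at 182 CPM, Elane at 157, Retnlg at 92.5, Mmp8 at 54.6 and Cxcr2 at 34.4 CPM, beside 5.48 CPM of Cxcr2 and at most 0.158 CPM of the others in low-granule cells, and Mpo was at 0 in both. The markers were chosen with earlier results known. Of the 7 listed monocyte markers, Chil3 was at 10935 CPM, Ly6c2 at 516 and Plac8 at 336 CPM, beside 1.63, 0 and 0 CPM in low-granule cells. Ccr2 (8.30 CPM) and Fn1 (4.75 CPM) were below their low-granule levels, and Vcan and S100a4 were at 0. Compared with the low-granule IRF8KO cells, 6 of the 8 members with at least 10 CPM in either were at least 2-fold lower (Csf1r, Csf1, Csf3r, Cx3cr1, Igf1 and Pdgfb) and none was higher. Across 8798 genes, 44.9% were at least 2-fold lower and 11.4% higher, with a median log2 ratio of -0.85, so lower values were common. With TMM scaling, Csf1 (-0.62) and Csf3r (-0.75) were no longer past 2-fold and Csf2rb was (1.31), and the shares were 25.8% lower and 20.0% higher.

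Most of the macrophage receptor UMIs in these cells came from the 2 cells just over the limit, which held 9.45% of the UMIs of the population but 264 of its 341 Cx3cr1 UMIs (77.4%), 214 of 305 Csf1r UMIs (70.2%) and 15 of 16 Csf1 UMIs. The 96 cells at 10% granule share or more, a limit chosen after seeing the data, had Cx3cr1 at 101 CPM, 4.03% of the low-granule level, Csf1r at 119 CPM (5.37%), Igf1 at 5.24 CPM (6.47%) and Pdgfb at 5.24 CPM (6.12%). The 11 microglia markers summed to 5.29% of their level in the low-granule cells, so these 4 members stood in a similar ratio. The Csf1 level was 1.31 CPM, from 1 UMI, a log2 ratio of -5.11 (-10.41 to -2.63). Among all 8841 genes, 50.1% were at least 2-fold lower in the 96 cells and 12% higher.

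The receptors of granulocyte growth factors did not follow that ratio. Csf2ra was at 98.3 CPM in the 96 cells, 112% of the low-granule level (log2 ratio 0.17, -0.19 to 0.50), and Csf2rb at 77.3 CPM, 139% (0.47, 0.07 to 0.85). Csf3r, the G-CSF receptor gene of neutrophils, was at 64.2 CPM, 27.0% of the low-granule level (-1.89, -2.33 to -1.48). Csf2rb2 had 5 UMIs, 6.55 CPM, beside 2.85 CPM (1.20, -0.48 to 2.51), which does not separate them. Of the IGF list, Igf1r was at 156 CPM in the 96 cells and 19.3 CPM in the low-granule cells (3.01, 2.70 to 3.31), and Igfbp4 at 56.3 and 9.01 CPM (2.64). Inhba, a TGF-beta family ligand subunit outside the naming rule and chosen after its values were seen, had 157 UMIs in the 96 cells, 206 CPM, and 1 UMI in each of the larger populations.

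**Figure D5:**
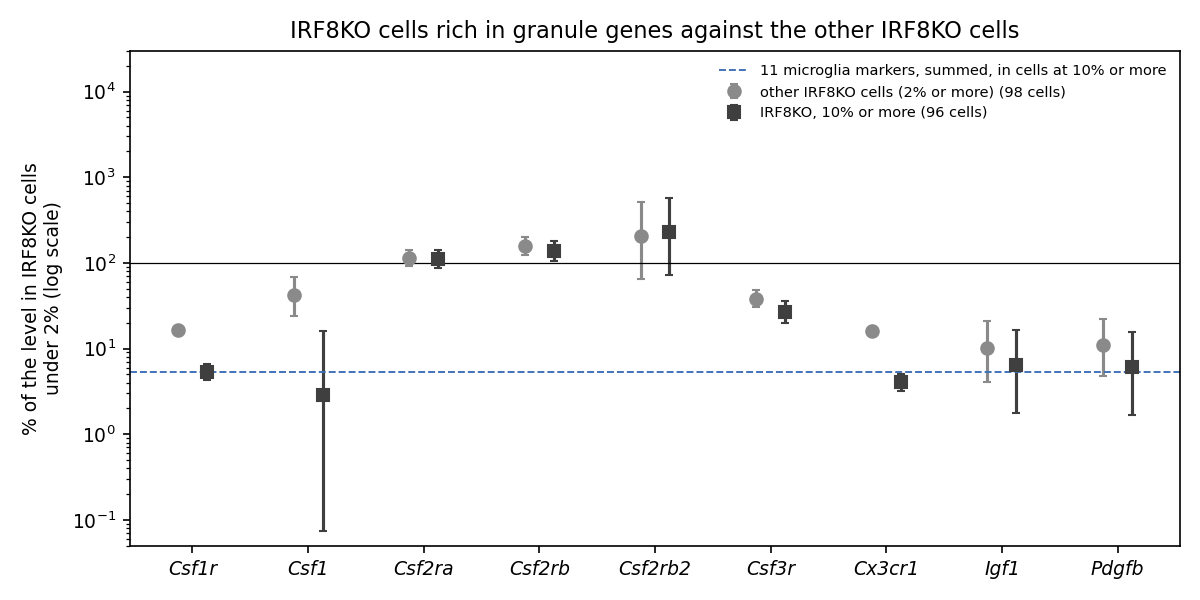
Level of each gene in granule-rich IRF8KO cells as a percentage of the low-granule IRF8KO level (log axis), for all 98 cells (circles) and for the 96 cells at 10% granule share or more (squares), with exact 95% intervals. Csf1r, Cx3cr1, Igf1 and Pdgfb lie near the dashed line of the microglia markers (5.29%) in the 96 cells. In the same cells Csf2ra is at 112% and Csf2rb at 139%, and Csf3r lies between that line and 100%, at 27.0%.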

How the data were processed

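Sorted microglia of 2 libraries were measured, and groups came from the sample titles. The authors deposited UMI counts as whole numbers, 1 matrix per library. Per the submitters' processing notes, bcl2fastq, Cell Ranger 3.1, Scanpy and the build mm10 were used. For alignment, strand and cell calling, settings were not given in the sources used here. A full-length kit, not a droplet method, stands in the labels' protocols too. WT barcodes numbered 3504 (18706147 UMIs) and IRF8KO barcodes 5303 (19998075 UMIs), and 5 barcodes were listed, and kept, in both.

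From the deposited counts, UMIs were summed per population and scaled to CPM. A gene was counted as higher or lower at a 2-fold CPM ratio with at least 10 CPM in either population, and a count of 0 was set to a floor of 3 counts over the group. With 1 library per group there was no test. The 95% intervals are exact Poisson for CPM, exact conditional binomial for ratios and Clopper-Pearson for shares. They cover counting error only. Cells were thinned to 2000 UMIs for shares of cells. Clusters were made per library with scanpy 1.11.5 (2000 variable genes, 30 components, 15 neighbours, resolution 0.5). The scrublet caller marked 0 WT cells and 3 IRF8KO cells and so did not work; cells were kept, and an alternative left out the 87 and 208 cells with the highest scores. TMM factors came from edgeR 4.0.16. The ratio script was tested on simulated data.

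Positions are from GENCODE M21 on GRCm38, to which 30934 of 31053 identifiers matched. The 9 members, the 7 gene lists and the markers were chosen with earlier results of these data known. Named genes were the 9 members, Irf8, of each list the 3 farthest from 0 in log2 ratio and the 2 with most CPM, and for each member the 3 genes most like it over clusters. Some genes that the rule selects are counted in their lists but not reported here by name. Genes outside this rule are markers, cluster leaders or named as such. Alternatives were other scalings, cell weighting, filters, granule limits, doublets, pseudocount, thinning, minimum level and clustering resolution.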

Additional observations from a re-analysis of the deposited data

Results flagged for a closer look

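Csf1 appeared among the barcodes that the cell filter left out. The 198 IRF8KO barcodes left out held 10 Csf1 UMIs of 174864, a level of 57.2 CPM (27.4 to 105). The 200 WT barcodes left out held 0 of 163086, which allows up to 22.6 CPM (upper limit of the exact Poisson interval). These barcodes entered no comparison above, and the difference was not tested.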

How the results depend on the processing

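No paired analysis was possible because each group was 1 library, and no library could be left out. Igf1, Csf1, Csf2rb2 and Pdgfb kept their direction and stayed past 2-fold under all 14 alternatives that kept them, depth quartiles aside, with log2 ratios of low-granule IRF8KO over WT cells of 5.13 to 6.23, 1.25 to 1.78, -3.37 to -2.81 and -1.35 to -1.07. Among these, a granule limit of 1% chose the same cells and could change no value. Limits of 5% and 10% moved at most the 2 cells just over the 2% limit. Csf1r ran from -0.80 to -0.54 and Cx3cr1 from -1.13 to -0.85. Csf3r reversed with TMM scaling (0.17), totals without mitochondrial and ribosomal protein genes (0.070), totals without the most abundant genes (0.0091), equal weight for each cell (0.065) and thinning (0.0097), and Irf8 reversed with TMM scaling (0.0064). List medians moved with the scale. With TMM scaling they were -0.057 for CSF1 receptor signalling, -0.37 for beta common and G-CSF receptor signalling, -0.20 for fractalkine signalling, -0.65 for the IGF system, 0.55 for the PDGF and VEGF family, 0.26 for other growth factors and -0.064 for other cytokine receptors. Without mitochondrial and ribosomal protein genes they were -0.16 for CSF1 receptor signalling, -0.31 for fractalkine signalling, 0.44 for the PDGF and VEGF family and -0.17 for other cytokine receptors. Without the most abundant genes they were -0.37 for fractalkine signalling, 0.38 for the PDGF and VEGF family, -0.34 for other growth factors and -0.23 for other cytokine receptors, and thinning gave -0.39 for other growth factors. With no minimum level, fractalkine signalling was at -0.41, the IGF system at -0.45 and the PDGF and VEGF family at 0.17. Scaling by other totals adds the same amount to every log2 ratio, so medians over the same genes moved by that amount. Without the most abundant genes, 9 other growth factors were used in place of 8. With no minimum level the counts and totals stayed the same and only genes under 10 CPM were added, so those medians moved by the added genes. The cause of the remaining moves was not tested. In granule-rich over low-granule IRF8KO cells, 1 member was past 2-fold higher with TMM scaling (Csf2rb), 1 after thinning and 1 with no minimum level (Csf2rb2 in both, from 5 UMIs unthinned). In these settings 20.0%, 12.8% and 24.4% of all genes were higher, so the counts are not read as particular to the members. With a minimum of 50 CPM, 1 member was past 2-fold higher in low-granule IRF8KO over WT cells (Igf1) and 2 lower (Cx3cr1 and Pdgfb), since Csf1 and Csf2rb2 were under that level. Of all genes at that minimum, 5.69% were higher and 9.84% lower. The 5 barcodes listed in both libraries changed no call when left out. In the 96 cells at the 10% limit, Csf1, Csf2rb2, Igf1 and Pdgfb had between 1 and 5 UMIs, which limits the precision of their ratios.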
